A study of Bos taurus with 12 samples.

Results

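The genes described here were 9 small leucine-rich proteoglycans and tenomodulin: decorin (DCN), biglycan (BGN), asporin (ASPN), lumican (LUM), fibromodulin (FMOD), prolargin (PRELP), osteomodulin (OMD), osteoglycin (OGN), chondroadherin (CHAD) and TNMD. Members were chosen by gene symbol, with earlier results of these data known. They made up 10 of the 17489 genes with a symbol on the array. The members had 12 of the array's 26323 transcripts and 24 spots on each array. RNA from endometrial biopsies was hybridized to 1-colour custom bovine arrays, with 1 array for each of 12 cows. The old females (OF, n = 4) were 13 to 14 years old and nulliparous, and the young females (YF, n = 4) were 4 to 5 years old and primiparous, so that age and parity cannot be told apart. Both groups were somatic clones of a single donor. The third group was contemporary cows (CC), for which the labels give no age, parity or clone status. Every cow was synchronized and biopsied on Day 15 of the estrous cycle. CC 1111 was left out by the authors, which leaves 3 CC arrays in the comparisons. Each animal is one replicate, and all levels below are log2 signals relative to the 75th percentile of the same array, so that 0 is the level of that percentile.

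Small leucine-rich proteoglycans are secreted proteins built of leucine-rich repeats, and most of them bind fibrillar collagens and shape how the fibrils assemble. Several also bind growth factors, among them TGF-beta, and in the uterus they are mainly products of stromal fibroblasts. Tenomodulin is no proteoglycan but a transmembrane glycoprotein known as a marker of mature tendon cells, with an extracellular domain related to chondromodulin.

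The labelled tissue was checked against its markers first. Among 8 endometrium markers, 6 were tested, led in signal by HOXA10, while SERPINA14 had no transcript of that symbol on the array and FOXL2 did not pass the filter on dim signals. A probe of each of the 6 was well above background on all 12 arrays, and a probe of FOXL2 on 8. Mean levels of the 6 ran from -4.78 to 3.58. Their median difference between OF and YF was 0.04, which is no check of the tissue. Of 9 tendon and cartilage markers, SCX and CNMD were not on the array under those symbols. ACAN, COL9A1, COMP and SOX9 were too dim to be tested in OF against YF. A probe of ACAN was well above background on 1 of 12 arrays, a probe of SOX9 on 1, and COL9A1 on 0. For COMP this was so on 10 arrays and for LECT1 on 11, and MKX and COL2A1 were well above background on all 12.

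For 9 of the 10 members, both probes of each transcript were well above background on all 12 arrays. The exception was OMD, which is best known from bone. Its levels lay between -8.69 and -7.18, and a probe was well above background only on the arrays of YF 1070 and CC 1111, so OMD was not tested. FMOD and OGN each had 2 transcripts. Both probe sequences of OGN-201 and OGN-202 were identical and FMOD-201 and FMOD-202 had a probe sequence in common, so these transcripts are not separate measurements. The 24 probes held 21 different sequences. Within a transcript, the paired probes shared 38 bases in BGN, 40 in PRELP, 44 in FMOD-201, 53 in CHAD and 58 in LUM. The shared stretch of LUM held a single mismatch, C20A, with positions counted from 1 at the 5′ end of the upstream probe, which has the base named first.

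The probe sequences that matter most for the values below are those of TNMD, which carried the only FCROS call among the members in OF against YF, and that of the brighter DCN probe, on which OF and YF lay farther apart than on the other DCN probe. Each has 60 bases, as given in the array files, and capitals mark the 19 whole codons of the first forward reading frame without a stop codon, which starts at base 2.
TNMD probe 1: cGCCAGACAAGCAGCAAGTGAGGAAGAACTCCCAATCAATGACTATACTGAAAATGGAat
TNMD probe 2: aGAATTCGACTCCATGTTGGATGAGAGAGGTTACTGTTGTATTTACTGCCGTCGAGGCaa
DCN brighter probe: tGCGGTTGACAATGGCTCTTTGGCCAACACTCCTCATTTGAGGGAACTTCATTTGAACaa
Both TNMD probes were well above background on all 12 arrays, OF 2258 included, where the level was lowest.

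Most members lie in gene clusters. On the UMD3.1 build, LUM (chromosome 5, 21037443 to 21044658) and DCN (chromosome 5, 21080013 to 21119087) were 35354 bases apart. FMOD and PRELP on chromosome 16 were separated by 106791 bases. On chromosome 8, OGN was followed by OMD after 8295 bases and by ASPN after a further 20039. In the gene order of the ARS-UCD2.0 assembly, EPYC and KERA, members of the same protein family, stand before LUM and DCN, OPTC follows PRELP, and ECM2 follows ASPN. BGN (39639906 to 39653687) and TNMD (50951671 to 50973156) are both on chromosome X, and CHAD is on chromosome 19.

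The comparison of OF with YF asks how the endometrium differs on Day 15 with age and parity, which cannot be told apart here. TNMD was lower in all 4 OF than in any YF, by a mean of -1.74 on the log2 scale, or 3.33-fold. No proteoglycan separated the groups. DCN, BGN, LUM and CHAD had lower means in OF, and FMOD, PRELP, OGN and ASPN higher ones. With limma, 0 of the 9 tested members passed an adjusted p of 0.05 (all transcripts, 0%, 0 of 19755). At an unadjusted p under 0.05, limma took 1 member (all transcripts, 2.42%), and in 1 member the groups did not overlap (all transcripts, 1.53%). In both counts this was TNMD. FCROS, the rank method of the study's authors, which makes no adjustment over transcripts, called TNMD lower and no other member, against 4.94% of all transcripts called in either direction, 2.88% called higher and 2.06% called lower in OF. Over the 9 members, 4 had a higher and 5 a lower mean in OF, with a median difference of -0.16, against 0.01 over all transcripts tested. This median had no fixed sign, being 0.019 within slide 2, 0.0092 without YF 1070, -0.056 with the normexp background and -0.30 without OF 2258.

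**Figure D1:**
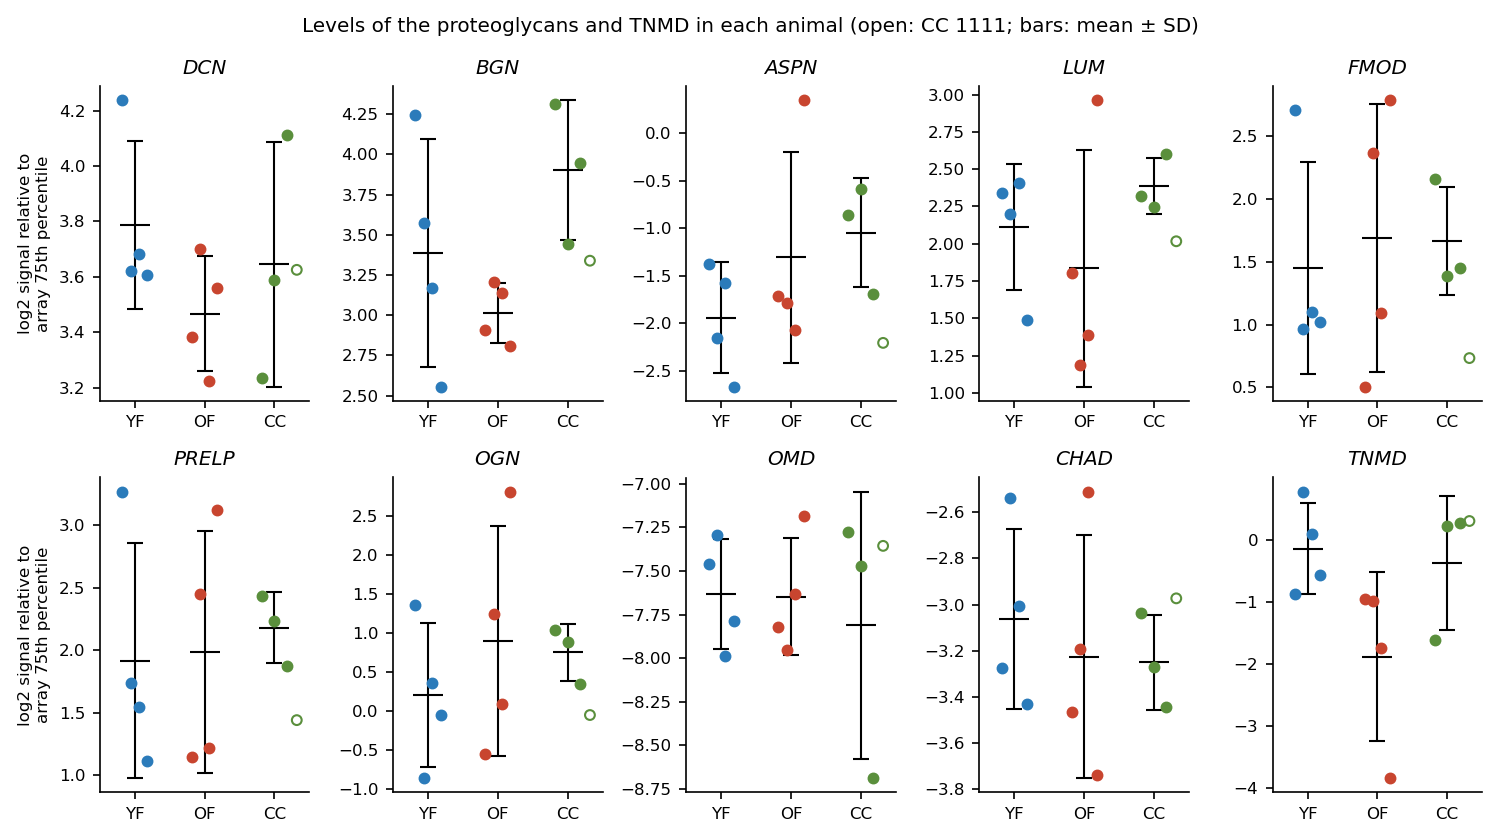
Level of each of the 10 genes in every animal, as log2 signal relative to the 75th percentile of the array, in YF (blue), OF (red) and CC (green), with CC 1111 as an open symbol outside the mean. Lines are group means and bars SD, and each panel has its own scale, so that heights cannot be compared between genes. In TNMD all OF lie below all YF, while in every proteoglycan these groups overlap.

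TNMD, the tendon glycoprotein, had levels of -0.87 in YF 1069, 0.77 in YF 1070, 0.08 in YF 1072 and -0.57 in YF 1127. In OF 0233, 0234, 0245 and 2258, the levels were -0.96, -0.99, -1.75 and -3.84. The groups did not overlap, but the gap between OF 0233 and YF 1069 was small, and OF 2258 stood far below the other OF. The mean was -0.15 ± 0.73 for YF and -1.88 ± 1.35 for OF (SD, n = 4 in each group). The difference of -1.74 had an SE of 0.66 and a 95% interval of -3.24 to -0.23, not adjusted for the number of transcripts. The exact two-sided permutation test gave p = 0.0286, the smallest that 4 against 4 allows, and the adjusted p of limma was 0.999. By FCROS the f-value was 0.00310 and the OF to YF ratio of arithmetic means 0.348, past the limits of 0.025 and a 1.5-fold change. Since the members were chosen with earlier results of these data known, these values are no independent test of TNMD. Each TNMD probe gave a similar difference, -1.77 for probe 1 and -1.70 for probe 2. Without OF 2258 the difference was -1.08. Within slide 1, which held 1 OF and 2 YF arrays, it was -2.17, within slide 2 it was -1.21, and with slide as a block -1.55. The unadjusted limma call was lost within slide 2 and with slide as a block, as well as without YF 1070 (-1.43) or YF 1072 (-1.66). In a bulk biopsy, fewer cells of a type and less RNA per cell cannot be told apart.

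DCN, which binds type I collagen and TGF-beta, had levels of 4.24, 3.62, 3.68 and 3.61 in YF 1069, 1070, 1072 and 1127. In OF 0233, 0234, 0245 and 2258 its levels were 3.38, 3.70, 3.22 and 3.56. YF 1069 was well above every other cow of both groups, and OF 0234 overlapped with the YF, the remaining OF being below them all. The difference was -0.32 (SE 0.19), with a 95% interval of -0.75 to 0.11 and an exact permutation p of 0.143, and it was -0.17 without YF 1069. Its probes differed in this. On the brighter probe (mean level 5.89) the difference was -0.55, with SDs of 0.51 in OF and 0.34 in YF, while on the other (mean level 1.37) it was -0.09. OF 0245 was the lowest OF on the brighter probe, at 4.90, and the highest on the other, at 1.55.

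BGN, the closest relative of DCN and likewise a carrier of chondroitin or dermatan sulfate chains, had levels of 4.25, 3.57, 3.17 and 2.56 in YF 1069, 1070, 1072 and 1127, and of 2.91, 3.21, 3.14 and 2.81 in OF 0233, 0234, 0245 and 2258. All OF lay inside the range of the YF, which was wide. The mean difference was -0.37 (SE 0.33), with SDs of 0.19 in OF and 0.71 in YF. It was -0.09 without YF 1069 and -0.65 without YF 1127. The latter was under an unadjusted limma p of 0.05 but did not pass the adjusted test. ASPN, a class I member without such chains that competes with DCN for collagen, lay at -1.37, -2.15, -1.58 and -2.66 in the same order of YF. In OF its levels were -1.71, -1.78 and -2.07, and 0.34 in OF 2258. That cow alone was above all YF. The difference of 0.64 (SE 0.54) became 0.09 without OF 2258 and -0.21 within slide 1.

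Among the class II members, which carry keratan sulfate or no chain, LUM lay between 1.49 and 2.41 in YF, with YF 1127 the lowest. In OF it was 1.80, 1.19 and 1.39 in OF 0233, 0234 and 0245 but 2.96 in OF 2258. This OF cow was above all YF while OF 0234 and 0245 were below them, and the mean difference was -0.27 (SE 0.40). It was 0.07 within slide 2, -0.92 within slide 1, -0.65 without OF 2258 and -0.059 without OF 0234. The value without OF 2258 was under an unadjusted limma p of 0.05 but did not pass the adjusted test. FMOD, which governs the crosslinking of collagen fibrils, was high in YF 1069 (2.71), OF 0234 (2.36) and OF 2258 (2.78), and between 0.51 and 1.10 in the other OF and YF. PRELP, known to bind basement membranes to the tissue beneath, was likewise highest in YF 1069 (3.27), OF 2258 (3.12) and OF 0234 (2.45), and between 1.11 and 1.74 in the rest. Differences between the groups were 0.24 (SE 0.58) for FMOD and 0.07 (SE 0.58) for PRELP, smaller than the spread within either group. The direction turned without OF 2258, to -0.13 for FMOD and -0.31 for PRELP, and with slide as a block PRELP gave -0.12.

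OGN, a class III member, had its highest level in OF 2258 (2.80), followed by YF 1069 (1.35) and OF 0234 (1.24), and its lowest in YF 1070 (-0.86). Its difference was 0.69 (SE 0.74) for OGN-201 and 0.70 for OGN-202. For OGN-201 it was 0.06 without OF 2258, 0.34 without YF 1070, 1.08 without YF 1069 and 1.18 without OF 0233. CHAD, which binds cells through an integrin in cartilage, ran from -3.74 in OF 2258 to -2.51 in OF 0245, so that a single group held both ends of its range. Its difference was -0.16 (SE 0.30), and 0.02 with slide as a block or 0.26 within slide 1.

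**Figure D2:**
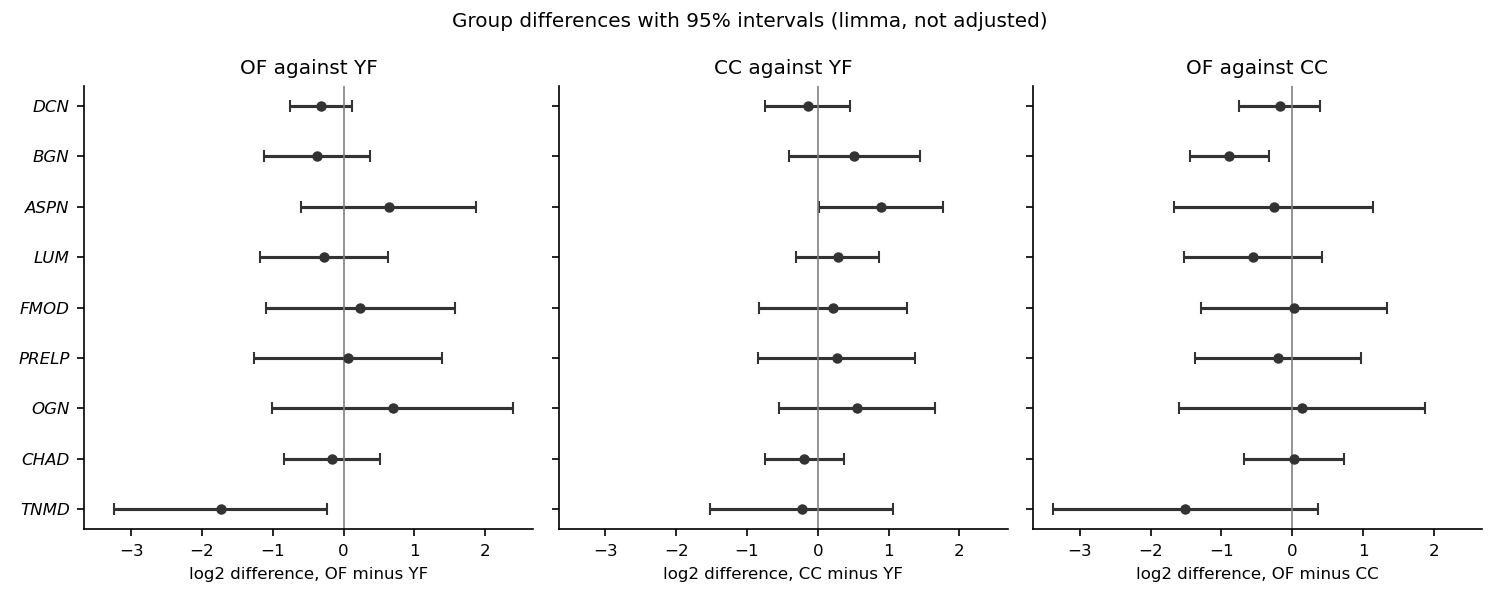
Difference in level between groups for the 9 tested members in each comparison, in log2 units, with points for the estimates and bars for 95% limma intervals that are not adjusted for the number of transcripts. The interval of TNMD in OF against YF (-3.24 to -0.23), that of ASPN in CC against YF (0.02 to 1.77) and that of BGN in OF against CC (-1.44 to -0.33) leave out 0.

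The spread within groups was uneven among the members. The median SD of the 9 members was 0.97 in OF and 0.71 in YF, against 0.32 and 0.28 over all transcripts tested in OF against YF, but BGN (0.19) and DCN (0.21) were below the OF median. OF 2258 had the highest level of the 11 arrays for LUM, FMOD, OGN and ASPN, and the lowest for TNMD and CHAD. YF 1069 was highest for DCN and PRELP, and 7 of its 9 tested members were above the YF mean. The opposite case was YF 1127, with 9 of 9 below that mean and the lowest levels of BGN, ASPN and PRELP. OF 0233 and OF 0245 each had 8 of 9 members below the YF mean.

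**Figure D3:**
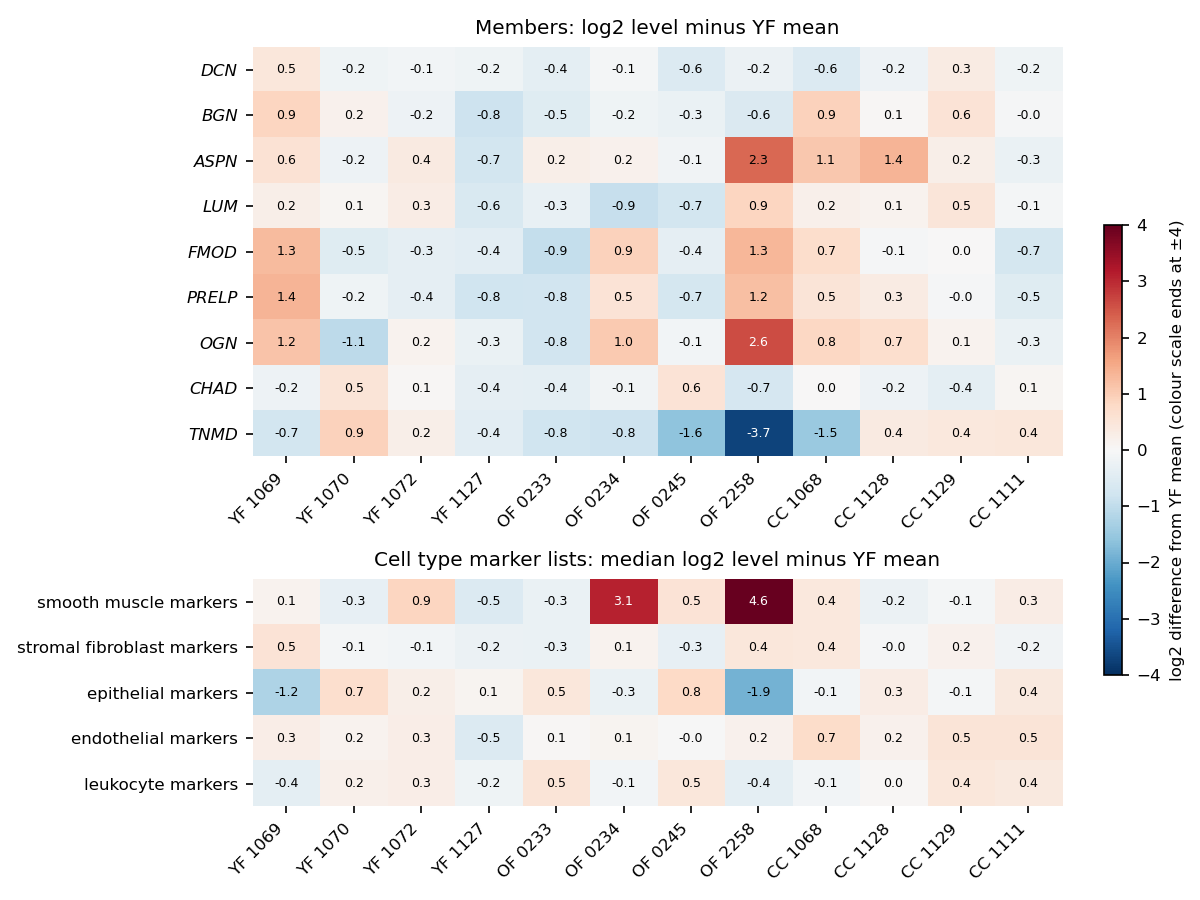
Log2 level minus the YF mean for each of the 9 tested members (upper grid) and median of the same quantity over 5 marker lists (lower grid), by animal, with red above and blue below the YF mean. OF 2258 shows the highest ASPN and OGN, the lowest TNMD, the highest smooth muscle median (4.60) and the lowest epithelial median (-1.90).

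Markers of other cell types also differed between these animals. All 10 tested smooth muscle markers had higher means in OF than in YF, with a median difference of 1.95, and 1.07 without OF 2258. FCROS called 9 of them higher, and limma passed 0 at an adjusted p of 0.05 and 1 at an unadjusted p. Their summed level, in units of the 75th percentile, was 33.8, 24.4, 66.8 and 24.4 in YF 1069, 1070, 1072 and 1127. The OF sums were 25.7, 368, 55.0 and 1045 for OF 0233, 0234, 0245 and 2258, with ACTA2 as the gene of highest signal. OF 2258 and OF 0234, the cows with the most smooth muscle signal, were also the OF with the highest FMOD, PRELP, OGN and DCN. This was not so for LUM, BGN, ASPN, CHAD and TNMD. LUM was lowest of the OF in OF 0234 (1.19), and BGN was lowest of the OF in OF 2258 (2.81). Among YF, however, YF 1069 had FMOD at 2.71, PRELP at 3.27 and OGN at 1.35 with a sum of 33.8. YF 1072, with the highest YF sum (66.8), had FMOD at 1.10, PRELP at 1.55 and OGN at 0.35. ACTG2 and MYOCD had no transcript under those symbols. TNMD was at -0.96 in OF 0233, -0.99 in OF 0234, -1.75 in OF 0245 and lowest, at -3.84, in OF 2258, the cow with the highest smooth muscle sum.

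Epithelial markers were low in OF 2258 and YF 1069. Their sum over 7 tested genes, led by EPCAM, was 11.6 in OF 2258 and 22.3 in YF 1069, and between 43.9 and 89.3 in the other OF and YF, and between 50.4 and 64.1 in CC. CDH1 had no transcript under that symbol. OF 2258 and YF 1069 also had the lowest TNMD of their groups, at -3.84 and -0.87. OF 0245, the next lowest OF for TNMD (-1.75), had the highest epithelial sum of OF and YF (89.3). The sum of 9 tested stromal fibroblast markers, led by VIM, was highest in YF 1069 (79.4), and between 40.4 and 47.6 in the other YF. In OF 0233, 0234, 0245 and 2258 it was 42.1, 50.6, 42.0 and 54.7. The stromal median difference between OF and YF was -0.09, and CD34 was not tested because of dim signal. Endothelial markers (7 tested, led by VWF) had a median difference of 0.15 and leukocyte markers (7 tested, led by CSF1R) of 0.08, with sums of 3.80 to 7.40 and of 3.29 to 5.29 over the OF and YF arrays. Without OF 2258 the median was 0.087 for endothelial, 0.25 for leukocyte and -0.13 for stromal markers. That of epithelial markers turned from -0.14 to 0.31. The part of these cell types in the levels of TNMD and of the proteoglycans was not tested.

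The comparison of CC with YF sets the contemporary cows against the young females and shares the YF arrays with the comparison above. Here ASPN had the largest difference of the members. It was -0.86 in CC 1068, -0.58 in CC 1128 and -1.69 in CC 1129, so that 2 of 3 CC were above all YF and CC 1129 lay among them. The difference was 0.90 (SE 0.38), with an exact permutation p of 0.171, where 3 against 4 allows no p below 0.0571 and so cannot reach 0.05. Within slide 2 and with slide as a block it was 0.97, and with CC 1111 included 0.61. With limma, 0 of 9 members passed at an adjusted p (all transcripts, 0%, 0 of 19993), 1 passed at an unadjusted p (all transcripts, 3.03%), which was ASPN, and in 0 the groups did not overlap (all transcripts, 3.83%). The unadjusted call of ASPN was lost within slide 2, with slide as a block, with 3 groups in 1 fit, with CC 1111 included and without CC 1068, CC 1128, YF 1070 or YF 1127. FCROS was run on OF against YF alone. Of the other members, BGN (0.51), OGN (0.55), LUM (0.28), PRELP (0.27) and FMOD (0.21) had higher means in CC, and DCN (-0.14), CHAD (-0.19) and TNMD (-0.23) lower ones. Leaving out 1 animal moved BGN between 0.24 and 0.80, OGN between 0.20 and 0.94 and LUM between 0.072 and 0.38, and OGN was 0.10 within slide 2. Without YF 1069, BGN, FMOD, OGN and PRELP were under the unadjusted limit and none passed the adjusted test. TNMD was 0.22 in CC 1128 and 0.28 in CC 1129 but -1.62 in CC 1068, below every YF, and the difference was 0.39 without that cow and 0.34 within slide 2. FMOD (-0.20) and CHAD (0.10) also turned their direction within slide 2, where the 3 CC arrays were. DCN was 3.23, 3.59 and 4.11 in CC 1068, 1128 and 1129, which spans nearly all the levels of OF and YF. FMOD, PRELP and OGN lay inside the YF range in all 3 CC. The median over the members was 0.27, against -0.02 over all transcripts tested. It was 0.64 without YF 1069, 0.072 without YF 1127, 0.080 with CC 1111 included, and 0.10 within slide 2 and with slide as a block. Between CC and YF, the median difference was 0.45 for endothelial, 0.20 for stromal and 0.19 for leukocyte markers. For smooth muscle and epithelial markers it was 0.04 and 0.02. The sums of endothelial markers were at least 7.09 in CC and 3.80 to 7.40 in YF, so they overlapped. The part of these cell types in the levels of ASPN and the other members was not tested.

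OF against CC shares its arrays with both comparisons above. BGN was 4.31, 3.44 and 3.95 in CC 1068, 1128 and 1129, and in OF at most 3.21. All 4 OF were below all 3 CC. OF had a mean of 3.01 ± 0.19 (SD, n = 4) against 3.90 ± 0.44 (SD, n = 3) for CC, a difference of -0.89 (SE 0.24, 95% interval -1.44 to -0.33) or 1.85-fold. The exact permutation p was 0.0571, the smallest that 4 against 3 allows, and the adjusted p of limma was 0.904. Both BGN probes gave similar differences, -0.87 and -0.91, and within slide 2, where all 3 CC arrays were, it was -0.93. CC 1111, which is not in these means, had a BGN level of 3.34, also above all OF. Cell type markers differed between these animals as well. The sums of endothelial markers, at least 7.09 in CC and 5.70 to 6.78 in OF, did not overlap, and those of stromal markers were 52.9 to 67.0 in CC and 42.0 to 54.7 in OF. The median difference between OF and CC was -0.36 for endothelial and 1.97 for smooth muscle markers, and their part in the BGN level was not tested.

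For the members as a whole, limma passed 0 of 9 at an adjusted p in OF against CC (all transcripts, 0%, 0 of 19914) and 1 at an unadjusted p (all transcripts, 4.57%), and in 1 the groups did not overlap (all transcripts, 5.79%). BGN was the member in both counts. TNMD was lower in OF by a mean of -1.51 (SE 0.80, exact permutation p = 0.171), but CC 1068 lay among the OF. Without CC 1068 the TNMD difference was -2.13, and with CC 1111 included it was -1.68. Both were under an unadjusted limma p of 0.05, with adjusted limma p of 0.575 and 0.803. LUM differed by -0.55 (SE 0.42), with 3 of 4 OF below all CC and OF 2258 above them. The remaining members differed by between -0.26 and 0.14, and the median over the members was -0.20, against 0.04 over all transcripts. That median was -0.097 without OF 0245, within slide 2 and with slide as a block, and -0.045 with CC 1111 included. Without OF 2258 the median was -0.58, and the differences were -0.86 for TNMD, -0.93 for LUM and -0.81 for ASPN. The latter pair was then under an unadjusted p of 0.05 but with adjusted limma p of 0.551 and 0.875. Leaving out 1 animal turned the direction of DCN (0.06 without CC 1129), FMOD (-0.34 without OF 2258), OGN (-0.50 without OF 2258), PRELP (0.08 without OF 0233) and CHAD (-0.21 without OF 0245 and -0.072 without CC 1129). In the order of the group means, OF was lowest for DCN, BGN, LUM and TNMD and highest for FMOD and OGN. For every pair of neighbours in these orders the 95% interval of the difference included 0. Intervals that left out 0 lay between the ends of an order, for TNMD (YF over OF), BGN (CC over OF) and ASPN (CC over YF), and none of these passed the adjusted test. The median SD of the members in CC was 0.43, against 0.27 over all transcripts tested in that comparison, but the SD of DCN was larger in CC (0.44) than in OF or YF.

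Genes that work with these proteoglycans were examined as lists. Among the other leucine-rich proteoglycans and the TNMD relative chondromodulin, 9 of 11 symbols were tested, and the median difference between OF and YF was -0.22, or -0.08 without OF 2258 and -0.03 with dim probes left out. FCROS counts for the lists cover every gene on the array, tested by limma or not, and are to be read against the same 2.88% and 2.06%. TSKU had the highest signal. KERA, the corneal relative of LUM, differed by -0.89 (SE 0.87), but -0.07 without OF 2258, and ran from -5.82 in OF 2258 to -1.01 in YF 1069. LECT1, the older symbol of chondromodulin, was -5.54, -5.58, -5.37 and -5.49 in OF 0233, 0234, 0245 and 2258. In YF 1069, 1070, 1072 and 1127 it was -6.30, -6.99, -6.21 and -6.16, below all OF. LECT1 passed the filter through OF, the group where it was higher, so its difference of 0.92 (0.61 with dim probes left out) and its FCROS call are given as a description. A pair of its 4 probes was above background in 0 YF.

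Collagens that the proteoglycans bind were represented by 14 tested genes of 14, with a median of -0.01, and -0.29 without OF 2258. FCROS called 2 higher and 3 lower. COL3A1 had the highest signal and a difference of -0.34 (SE 0.29), or -0.08 without YF 1069. COL12A1, which coats fibrils and itself binds DCN and FMOD, differed by 1.41 (SE 0.70), or 0.76 without OF 2258, and was highest in OF 2258 (-1.27) and OF 0234 (-2.76), the cows with the highest smooth muscle sums. COL2A1, the cartilage collagen, was -1.48, -1.32, -2.24 and -3.05 in YF 1069, 1070, 1072 and 1127, and -3.11, -3.28, -2.82 and -4.19 in OF 0233, 0234, 0245 and 2258. OF 0245 was above YF 1127, and the rest of OF was below all YF, with a difference of -1.33 (SE 0.43, exact permutation p = 0.0571), called lower by FCROS.

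The enzymes that build and sulfate the sugar chains were tested for 17 of 25 symbols, with a median of -0.04. FCROS called 2 lower and 0 higher, and both were sulfotransferases of keratan sulfate or related chains. CHST2 was -0.39, -1.12, -0.94 and -0.78 in YF 1069, 1070, 1072 and 1127 and -1.33, -1.65, -1.82 and -1.49 in OF 0233, 0234, 0245 and 2258. All OF were below all YF, and the difference was -0.77 (SE 0.19, exact permutation p = 0.0286). CHST1 differed by -0.78 (SE 0.47), or -0.36 without YF 1069, with its highest level in YF 1069 (4.44) and its lowest in OF 2258 (1.59). CHPF, a chondroitin polymerizing factor, had the highest signal and a difference of 0.03, or -0.13 without OF 2258.

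For ligands and receptors bound by the proteoglycans, 17 of 21 symbols were tested, with a median of 0.04, which turned to -0.12 without OF 2258 and to -0.07 with dim probes left out. The single FCROS call, lower in OF, was WISP1, too dim to be tested by limma. ITGB1 had the highest signal (difference 0.15, or -0.07 without OF 2258). MSTN, the ligand myostatin, had probes above background in only 2 of 4 OF and passed the filter through YF, where it was higher, so its difference of -1.28, or -0.57 without OF 2258, is a description. The difference of KDR, a VEGF receptor bound by DCN, was 0.53, but 0.13 without OF 0245 and -0.07 with dim probes left out. Of 11 proteases that process these proteins, 8 were tested, 7 had a lower mean in OF, and the median was -0.29. ADAMTS9 (-0.59, SE 0.38), ADAMTS5 (-0.56, SE 0.35) and ADAMTS1, the protease of highest signal (-0.05), were among them. Without YF 1069 these were -0.23, -0.28 and 0.14. The single FCROS call, higher in OF, was TLL1, too dim for limma.

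Other matrix proteoglycans and matrix proteins (20 of 23 tested) had a median of -0.10, or -0.29 without OF 2258, with 2 FCROS calls in each direction. SPARC had the highest signal (difference 0.11, or -0.27 without OF 2258). PRG4, the lubricant of joints and tendon sheaths, differed by -1.39 (SE 1.20), but -0.041 without OF 2258, which was at -3.90, the remaining OF being between 0.90 and 2.11. BCAN, a brain proteoglycan, had probes above background in 0 and 1 of 4 OF and passed the filter through YF, the group where it was higher. Its difference, -1.63, or -1.08 with dim probes left out, and its FCROS call, 1 of the 2 lower ones of this list, are therefore a description. Of 7 transcription factors of tendon cells, 4 were tested, of which FCROS called EGR1 and MKX higher in OF, besides EGR2, which was too dim for limma. Their median of 0.42 was 0.29 without OF 2258. EGR1 differed by 1.69 (SE 1.33), or 0.60 without OF 2258 and 2.62 without OF 0234. MKX, the factor mohawk, differed by 0.92 (SE 0.56), or 0.48 without YF 1069 and 1.41 without YF 1072. The groups overlapped in both genes. In OF against YF, limma passed 0 genes of these lists and of the cell type lists at an adjusted p. Over all 19755 transcripts tested, 283 were higher and 195 lower in OF at an unadjusted limma p under 0.05. At an unadjusted p, the counts of genes higher and lower in OF were 1 and 0 for the other leucine-rich genes, 0 and 1 for collagens, 1 and 1 for chain synthesis, 0 and 0 for ligands and receptors, proteases and transcription factors, and 0 and 1 for other matrix genes. They were 1 and 1 for the tendon and cartilage markers and 0 and 0 for stromal, epithelial, endothelial, leukocyte and endometrium markers. LECT1 was the leucine-rich gene and the higher tendon and cartilage marker in these counts and BCAN the other matrix gene, so those entries are a description and no test result.

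The transcripts closest to TNMD in pattern were sought among 17316 named ones by the root mean square difference of centred log2 levels over 11 arrays. They were ALOX12 (0.427), KLK1 (0.454), STMN2 (0.477), TTLL5 (0.526) and TM6SF2 (0.576), where TNMD itself had a root mean square of 1.22. The choice itself, made on the same arrays, favours transcripts that are low in OF 2258, where ALOX12 lay at -3.04 and TM6SF2 at -2.40 relative to their own means, so their differences between groups are no separate result. In OF 0245, however, TNMD lay at -0.91 and ALOX12 at 0.06. The closest to DCN (root mean square 0.301) were METTL16 (0.122), TSPAN31 (0.128), OLFM2 (0.141), SNF8 (0.146) and C5orf42 (0.153). They shared its high level in YF 1069 and its low levels in OF 0245 and CC 1068, which the choice on the same arrays likewise favours. No other member was among the closest to either gene.

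**Figure D4:**
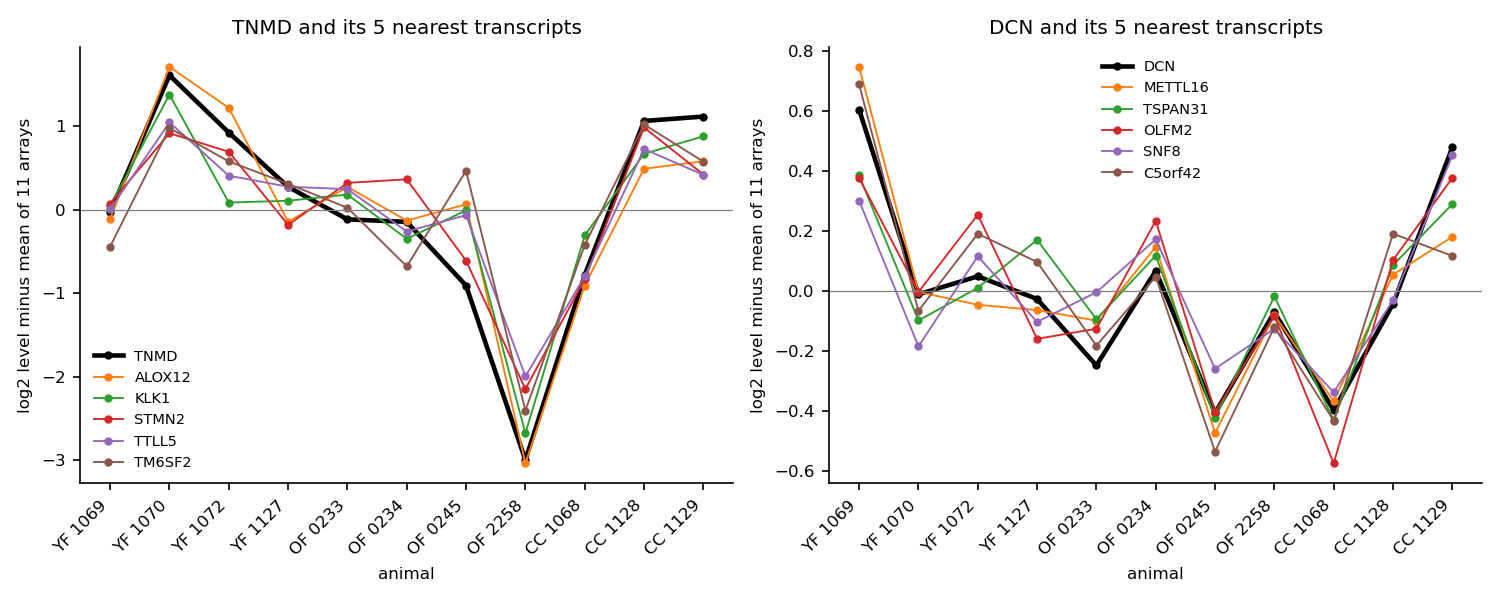
Centred log2 levels of TNMD (left) and DCN (right) in black and of the 5 transcripts closest to each in colour, over the 11 arrays used, with lines joining the values of a transcript across animals only to guide the eye. In the TNMD panel every line has its lowest point at OF 2258, and the DCN panel spans a far narrower range.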

How the data were processed

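Endometrial RNA of 12 cows was hybridized to 1 array each. The deposited values are the processed signal of Feature Extraction 10.7.3.1, an intensity from which, per the file headers, the authors' software had subtracted the background, with no normalization between arrays stated. Leaving out controls, there were 61549 spots per array. Of these, 71.6% to 74.9% were well above background by the software's own test and 0 were saturated, and the number of arrays limits the precision. The 75th percentile of the signal ran from 967.5 to 1597.

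Spots were averaged to probes on the log2 scale, 66 probes with outlier flags were dropped, and the array's 75th percentile was subtracted. All probes of a transcript were then averaged. A transcript was tested where a probe was well above background on every array of either group. Differences were tested by limma 3.58.1, run under R 4.3.3 (Benjamini-Hochberg over all transcripts tested, threshold 0.05, two-sided), and by exact two-sided permutation tests in Python 3.11.15. For OF against YF, FCROS was also computed (16 ratios, trim 0.25, f-value within 0.025 of either end, 1.5-fold change). CC 1111 was left out, as by the study's authors. Arrays came from 2 slides.

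Named genes were all members, each by its transcript of highest signal, and the 5 transcripts closest to TNMD and to DCN. From each list of related genes, these were the gene of highest signal and the 2 with the largest difference between OF and YF. For cell type and endometrium markers, only the gene of highest signal was named among those tested. Also named were the tendon and cartilage markers, neighbours on the genome and some genes not on the array or too dim to be tested. WISP1, TLL1 and EGR2 were named as FCROS calls too dim for limma. The members and lists were chosen with earlier results of these data known. Alternatives were median centring, quantile normalization, normexp background, the brightest probe alone, no filter on dim probes, 3 groups in 1 fit, slide as a block, each slide alone, CC 1111 included and leaving out each animal. Averaging only probes that passed the filter was chosen after seeing the data.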

Additional observations from a re-analysis of the deposited data

Results flagged for a closer look

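Within each group of 4 arrays, an animal was marked when it stood apart from its group mates by most of the group's range. For DCN, YF 1069 at 4.24 stood above the other YF, at 3.61 to 3.68. FMOD in YF 1069, at 2.71, was likewise far above the other YF, at 0.97 to 1.10. ASPN in OF 2258, at 0.34, was far above the remaining OF, the next being -1.71. The cut was set at a 95% critical value, so chance marks about 1 in 20 independent groups. Of the 20 groups examined 3 were marked, but these groups reuse the same OF and YF animals and are not independent. The array of CC 1111, left out of the comparisons as reported, was above the highest YF in 0 of 9 tested members.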

How the results depend on the processing

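No paired analysis was possible because the groups share no animals. Of 441 alternative values of member differences, 392 kept their direction and 49 reversed, none passed the threshold, and the lowest adjusted p of limma was 0.551. These values are not all separate, so the count is no measure of stability. Fitting 3 groups at once leaves each difference as it was. In OF against CC, slide 2 alone, the slide block and leaving out OF 0245 gave the same differences. In CC against YF, slide 2 alone and the slide block did so. The difference of TNMD in OF against YF was negative in every alternative run, from -2.17 to -1.08, and that of BGN in OF against CC from -1.12 to -0.68. FCROS called TNMD lower in 13 of 13 settings, with ratios of 0.292 to 0.456. It also called LUM lower without OF 2258 and BGN lower without YF 1127. Averaging only probes past the filter, an alternative chosen after seeing the data, left the members' differences as they were.

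In OF against YF, reversals came on slide 2 for LUM (0.069), on slide 1 for ASPN (-0.21), PRELP (-0.42) and CHAD (0.26), and with slide as a block for PRELP (-0.12) and CHAD (0.021). In CC against YF, slide 2 alone and the slide block both gave -0.20 for FMOD, -0.0079 for PRELP, 0.34 for TNMD and 0.10 for CHAD, and including CC 1111 gave -0.018 for FMOD. In OF against CC, median centring gave -0.0071 for FMOD and -0.0035 for CHAD, quantile normalization -0.0044 and the brightest probe -0.025 for CHAD. Slide 2 alone and the slide block gave 0.059 for PRELP and -0.21 for CHAD, and including CC 1111 gave 0.031 for ASPN and -0.045 for CHAD.

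Leaving out 1 animal at a time, OF against YF ran from -0.13 to 0.66 for FMOD, -0.31 to 0.52 for PRELP and -0.40 to 0.011 for CHAD. CC against YF ran from -0.37 to 0.064 for DCN, -0.030 to 0.64 for FMOD, -0.0033 to 0.72 for PRELP and -0.55 to 0.39 for TNMD. OF against CC ran from -0.38 to 0.056 for DCN, -0.34 to 0.41 for FMOD, -0.50 to 0.62 for OGN, -0.58 to 0.083 for PRELP and -0.21 to 0.20 for CHAD. The members' median in CC against YF ran from 0.072 to 0.64, the highest being without YF 1069.

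The limma count of all transcripts in CC against YF, 0 as reported, was 2 with 3 groups in 1 fit, 1 with quantile normalization, 4 with CC 1111 and 0 to 1 leaving out 1 animal. In OF against CC it was 2 with CC 1111 and 0 to 1 leaving out 1 animal. At an unadjusted p the counts were 478 in OF against YF, 606 in CC against YF and 911 in OF against CC as reported, and leaving out 1 animal they ran from 386 to 959, from 489 to 988 and from 665 to 1721. With slide as a block they were 767, 730 and 1059. FCROS counted 1300 transcripts, 548 with normexp background and 1190 to 1555 leaving out 1 animal. The cause was not tested. Within slide 1, OF had 1 array, so no test was made there, and dim signal limits OMD, BCAN, MSTN and LECT1.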

Other observations

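CC 1111 had levels of 3.63 for DCN, 3.34 for BGN, -2.20 for ASPN, 2.02 for LUM, 1.44 for PRELP, -2.97 for CHAD and 0.30 for TNMD, each within the range of the 4 YF. Its FMOD level of 0.73 was below all YF, and its OGN level was -0.05. Of 9 tested members, 2 were above the YF mean in this cow, TNMD and CHAD.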
